A study of Mus musculus with 16 samples.

Results

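The digestive enzymes of the intestinal brush border were examined as a set of 9 genes, chosen by name from the gene tables of all 16 ileal libraries. The set holds 4 peptidases (Anpep, Dpp4, Enpep and Mme), 4 disaccharidases (Sis, Mgam, Lct and Treh) and the intestinal alkaline phosphatase Alpi, out of 41740 gene names in the files. All 9 had reads in every library and passed the filter on low counts that left 15267 genes for testing. The libraries were made from total RNA of the whole ileal wall of male STAM mice at 20 weeks of age, a model in which low-dose streptozotocin on day 2 of life and high-fat feeding that starts at 4 weeks produce diabetes with fatty liver disease. Every mouse carried floxed alleles of the insulin receptor gene (genotype label InsR-flox). Control-STAM-nonINS (n = 4) was Cre-negative and received no insulin but 2 daily injections, which the paper describes as normal saline. These mice are called the untreated controls below. Control-STAM-INS (n = 6) was Cre-negative and was given the long-acting insulin degludec from 6 weeks of age, with 2 daily doses that reached up to 12 U/kg. ieIRKO-STAM-INS (n = 6) carried Villin-Cre, a recombinase driven by a promoter of the intestinal epithelium, and was given the same insulin. No Villin-Cre group without insulin was among these libraries, so the genotypes could be compared at equal treatment only under insulin.

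Enterocytes, the absorptive cells of the small intestine, carry these enzymes as membrane proteins on the microvilli of their luminal surface. The peptidases cut the short peptides left by pancreatic digestion into amino acids and very short peptides, and the disaccharidases split disaccharides and starch fragments into monosaccharides that transporters in the same membrane take up. Intestinal alkaline phosphatase removes phosphate groups from luminal substrates, bacterial lipopolysaccharide among them. Most of these genes are switched on as cells leave the crypt and move up the villus, and lactase falls in rodents around weaning.

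In the GRCm38 annotation the peptidase genes lie at chr7:79821803-79861059 (Anpep, minus strand), chr2:62330073-62412231 (Dpp4, minus), chr3:129269175-129332720 (Enpep, minus) and chr3:63241537-63386030 (Mme, plus). The disaccharidase genes lie at chr3:72888557-72967863 (Sis, minus), chr6:40628831-40769123 (Mgam, plus), chr1:128284756-128328318 (Lct, minus) and chr9:44673233-44686305 (Treh, plus), and Alpi lies at chr1:87098002-87101606 on the minus strand. Anpep overlaps Gm44974 on its own strand, and Dpp4 and Treh overlap Gm13561 and Phldb1 on the opposite strand. The strand setting of the counting is not given in the sources used here, so reads of these overlapping genes could not be told apart.

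The 5 promoters shown here belong to the genes whose levels carry the results below, with Anpep, the most abundant peptidase, for comparison. They are RefSeq sequences of GRCm38.p6 from 250 bases before to 50 bases after the transcript start, written 5′ to 3′ on the strand of the gene. Capitals mark 4 motifs, each searched on both strands. The first is TTTAT, a core read by the intestinal homeobox factor CDX2 (CDX motif). The next is GTTAAT, a part of sites of the factor HNF1 (HNF1 motif). The one called the GATA motif here is AGATAA, read by zinc finger factors such as GATA4. The last is CAAAGTCCA, a site of the nuclear receptor HNF4A (HNF4 motif).
Sis (chr3:72967814-72968113, minus strand): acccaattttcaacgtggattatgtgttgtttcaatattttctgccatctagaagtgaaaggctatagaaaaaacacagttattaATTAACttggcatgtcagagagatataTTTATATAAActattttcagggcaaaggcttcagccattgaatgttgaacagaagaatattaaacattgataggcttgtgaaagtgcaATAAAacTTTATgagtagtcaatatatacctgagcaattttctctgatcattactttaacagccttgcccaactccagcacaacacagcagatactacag
Mgam (chr6:40628581-40628880, plus strand): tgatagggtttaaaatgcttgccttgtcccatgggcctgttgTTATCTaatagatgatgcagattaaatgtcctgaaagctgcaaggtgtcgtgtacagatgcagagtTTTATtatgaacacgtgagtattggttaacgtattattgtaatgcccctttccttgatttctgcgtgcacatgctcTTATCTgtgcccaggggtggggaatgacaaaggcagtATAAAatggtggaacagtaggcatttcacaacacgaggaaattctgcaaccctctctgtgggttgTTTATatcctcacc
Treh (chr9:44672983-44673282, plus strand): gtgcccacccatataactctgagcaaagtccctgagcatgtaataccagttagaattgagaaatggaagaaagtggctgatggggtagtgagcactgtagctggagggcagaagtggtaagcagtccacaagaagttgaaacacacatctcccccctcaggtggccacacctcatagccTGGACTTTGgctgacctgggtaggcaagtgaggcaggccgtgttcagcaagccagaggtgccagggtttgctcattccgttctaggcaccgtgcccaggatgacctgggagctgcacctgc
Alpi (chr1:87101557-87101856, minus strand): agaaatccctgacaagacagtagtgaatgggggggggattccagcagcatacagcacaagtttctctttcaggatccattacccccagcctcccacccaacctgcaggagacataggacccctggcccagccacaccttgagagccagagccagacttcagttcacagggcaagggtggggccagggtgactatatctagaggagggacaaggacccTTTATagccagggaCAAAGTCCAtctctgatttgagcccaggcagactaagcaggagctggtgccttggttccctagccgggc
Anpep (chr7:79848161-79848460, minus strand): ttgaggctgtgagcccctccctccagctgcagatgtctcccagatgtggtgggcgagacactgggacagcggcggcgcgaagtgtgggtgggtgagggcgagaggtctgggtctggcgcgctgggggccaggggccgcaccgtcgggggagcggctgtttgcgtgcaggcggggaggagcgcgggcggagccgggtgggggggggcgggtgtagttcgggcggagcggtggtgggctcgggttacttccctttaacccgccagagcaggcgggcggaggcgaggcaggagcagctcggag

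The Sis promoter held 4 matches of the CDX motif and 1 of the HNF1 motif, and 2 of the CDX matches, on opposite strands, abut each other. The Mgam promoter held 3 CDX and 2 GATA matches. The Treh promoter held only the HNF4 motif, and the Alpi promoter held the HNF4 and CDX motifs with 1 match each. No match stood in the Anpep window, which lies inside the annotated gene and away from its annotated 5′ end. The bases at that end were not searched. Among 32851 mouse promoters of the same length, the CDX motif occurred in 40%, the HNF1 motif in 7.1%, the GATA motif in 11.2% and the HNF4 motif in 0.475%. Of the promoters not printed, Lct held the CDX and GATA motifs with 2 matches each, 1 CDX match overlapping a GATA match, Dpp4 held 1 of each, and Enpep held 2 CDX matches. The 3 promoters of Mme, which also lie inside the annotated gene, held none of the 4 motifs. These are matches of letters and not measured binding.

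Between 13288018 and 22215382 reads were counted per library, and the 9 enzymes together took 0.757% to 2.38% of them. Levels are given as CPM, read counts per 1000000 after TMM normalization. The 6 libraries labelled ieIRKO-STAM-INS are called ieIRKO-labelled from here on, because Insr, the insulin receptor gene that the knockout targets, had no lower level in them (67.2 ± 13.4 CPM, SD, n = 6) than in Control-STAM-INS (62.7 ± 10.1 CPM, SD, n = 6, edgeR adjusted p = 0.805). Insr fell with insulin in the control genotype, from 105 ± 12.3 CPM (SD, n = 4) without it, by 0.75 on the log2 scale (edgeR adjusted p = 0.00275), and the whole wall also holds cells in which Villin-Cre does not act. The counts are per gene, so reads of the floxed part of Insr could not be set apart. The Insr level therefore cannot test the knockout. Ileal identity was checked by Fabp6, the ileal bile acid binding protein, which averaged 6588 CPM in the untreated controls, 5152 CPM in the treated controls and 4374 CPM in the ieIRKO-labelled libraries. Fabp6 fell between the first and the last of these groups, by 0.59 on the log2 scale (edgeR adjusted p = 0.0338). The summed list of 6 duodenal and jejunal markers was 83.8 to 167 CPM over all libraries. Pdx1 and Trpv6 did not pass the filter and Gata4 averaged under 3 CPM in every group, while 3 of the 4 tested markers changed with insulin in the control genotype. Fabp1 and Cybrd1 fell by 2.58 and 0.83 on the log2 scale (edgeR adjusted p = 0.0117 and 0.0441), and Slc40a1 rose by 1.00 (edgeR adjusted p = 0.0488), and the same 3 were called, in the same directions, in the ieIRKO-labelled libraries against the untreated controls. Control-STAM-nonINS replicate 4 and ieIRKO-STAM-INS replicate 5 stood apart from the rest of their groups by low brush border structure transcripts, while their summed goblet markers (8447 and 10902 CPM) lay within the range of their groups. Both had the highest sum of B and plasma cell markers in their group, 1771 against 718 to 1115 CPM and 3115 against 1655 to 2119 CPM, and the former also had its group's highest T cell (23 CPM) and myeloid (182 CPM) sums. The part of these cells in the results that rest on either library was not tested. The summed level of 13 brush border structure genes, such as Vil1, Ezr and Myo1a of the microvillus core, was 8378 CPM in the former and 6818 CPM in the latter, against medians of 13986 CPM in Control-STAM-nonINS, 14857 CPM in the treated controls and 12022 CPM in the ieIRKO-labelled libraries. ieIRKO-STAM-INS replicates 2 and 3 had the highest sums of T cell markers (51.0 and 54.0 CPM) and myeloid markers (316 and 355 CPM) of all libraries. In bulk RNA of this kind, fewer enterocytes and less RNA of a gene per enterocyte cannot be told apart.

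Divided by the length of their exons, the enzymes covered a wide range of levels. Anpep (aminopeptidase N), which removes amino acids one by one from the free end of peptides, was the highest at 1700 ± 440 CPM per kb (SD over 16 libraries). Enpep (glutamyl aminopeptidase), which removes acidic residues, followed at 472 ± 124 CPM per kb. Sis (sucrase-isomaltase) had 438 ± 218 and Mgam (maltase-glucoamylase) 435 ± 142 CPM per kb. These 3 neighbours in the order were not separated, since Enpep lay above Sis in 11 of 16 libraries and Sis above Mgam in 8 of 16. Alpi with 139 ± 54.9 and Dpp4 (dipeptidyl peptidase 4) with 123 ± 28.6 CPM per kb were likewise interleaved, with Alpi higher in 10 of 16 libraries. Treh (trehalase) at 44.8 ± 21.2, Mme (neprilysin) at 14.5 ± 8.36 and Lct (lactase) at 0.960 ± 1.11 CPM per kb followed, each above the next in 16 of 16 libraries. The order differed by group in its upper part. In Control-STAM-nonINS, Sis (702 CPM per kb) and Mgam (608) stood above Enpep (483), whereas Enpep stood above both in the 2 insulin-treated groups.

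**Figure D1:**
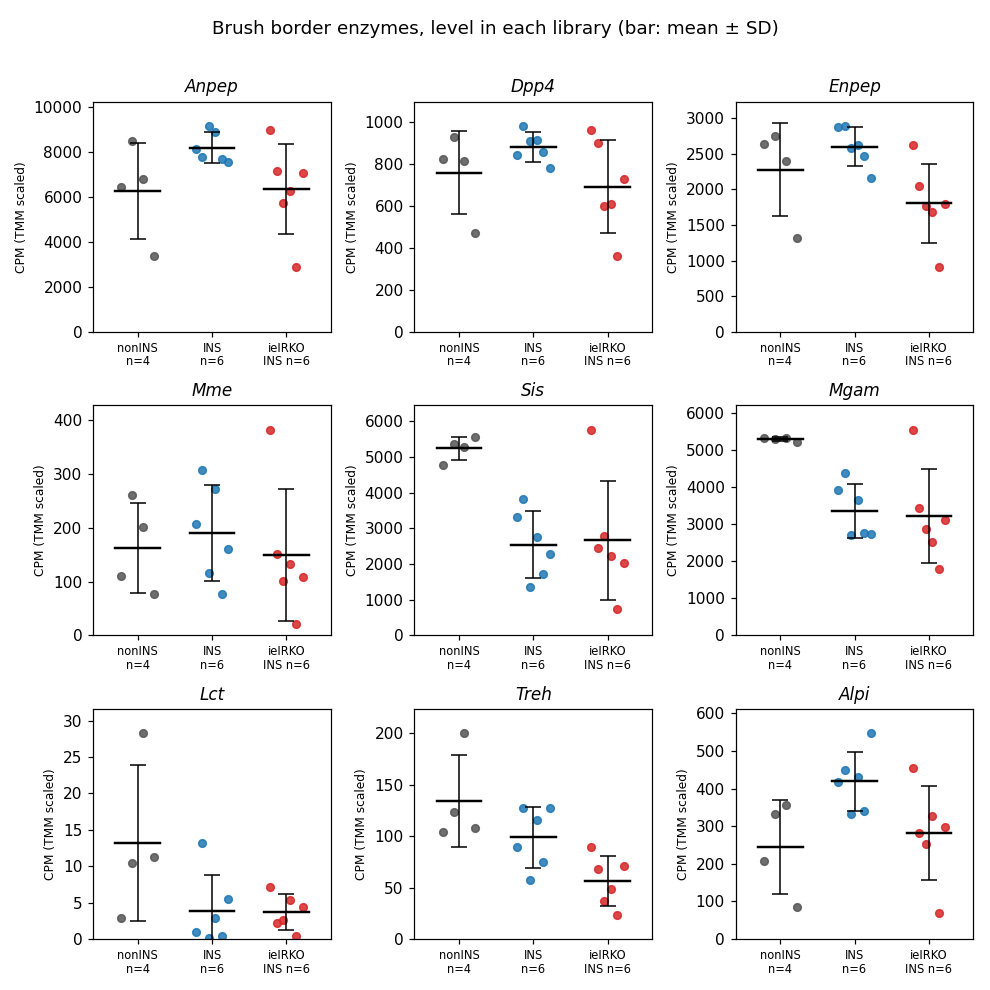
Level of each of the 9 enzymes in each of the 16 libraries, in CPM on a linear axis starting at 0, for untreated controls (nonINS, n = 4), insulin-treated controls (INS, n = 6) and the ieIRKO-labelled libraries (n = 6). Points are libraries and bars give the mean ± SD. The 4 Control-STAM-nonINS points of Sis and Mgam lie above all 6 Control-STAM-INS points, whereas Control-STAM-nonINS and Control-STAM-INS overlap for the other 7 enzymes.

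The first comparison asked how insulin treatment of STAM mice with an intact receptor relates to the enzymes (Control-STAM-INS against Control-STAM-nonINS). Both abundant disaccharidases were lower with insulin and did not overlap between the groups, the 4 peptidases and Alpi were higher on average with overlapping groups, and no member passed an adjusted p of 0.05 in the fit over all genes and all 3 groups.

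Sis, which splits sucrose and the branch points of starch, had 4777, 5356, 5284 and 5553 CPM in the 4 Control-STAM-nonINS libraries. In the 6 Control-STAM-INS libraries it ranged from 1347 over a median of 2527 to 3821 CPM. Every insulin-treated control therefore lay under every untreated one. The log2 fold change was -1.04 ± 0.39 (SE), with edgeR adjusted p = 0.104. An exact permutation test on log2 CPM, two-sided, gave p = 0.00952, the smallest value that 4 against 6 libraries allow.

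Mgam, which releases glucose from the ends of starch fragments, was almost the same in all Control-STAM-nonINS libraries, with 5322, 5312, 5324 and 5223 CPM. With insulin it ranged from 2701 over 3197 to 4373 CPM, again with no overlap. The log2 fold change was -0.66 ± 0.22 (SE, edgeR adjusted p = 0.0692), and the exact permutation test gave p = 0.00952. When only these 2 groups entered the fit, the adjusted p from edgeR was 0.0152 for Sis and 0.0163 for Mgam. DESeq2 gave 0.0866 for Sis and 0.037 for Mgam.

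The less abundant disaccharidases varied more. Lct, which splits milk sugar, had 2.88, 10.5, 28.2 and 11.3 CPM without insulin and ranged from 0.18 over 1.9 to 13.2 CPM with insulin, so the groups overlapped. Its count was as low as 3 reads in the lowest library, and the log2 fold change of -1.81 ± 0.89 did not pass the test (edgeR adjusted p = 0.223). Treh, which splits trehalose, had 104, 123, 200 and 108 CPM without insulin and 57 to 128 CPM with a median of 103 with insulin. The groups of Treh overlapped, and its log2 fold change was -0.44 ± 0.33 (edgeR adjusted p = 0.444). Without Control-STAM-nonINS replicate 3, the highest library of both genes, Treh was -0.17 and Lct was -1.12.

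Anpep had 6446, 8484, 6798 and 3359 CPM in Control-STAM-nonINS, the last value in the library low in structure genes, and 7552 to 9159 CPM with a median of 7966 in the treated controls. For Anpep the log2 fold change was 0.39 ± 0.25 (edgeR adjusted p = 0.356), and the exact permutation test gave p = 0.0476. Without Control-STAM-nonINS replicate 4 the difference in log2 CPM was 0.19, against 0.46 with all libraries. Dpp4, which removes dipeptides and also inactivates incretin hormones, had 821, 927, 810 and 471 CPM without insulin and 779 to 978 CPM with it. Enpep had 2636, 2751, 2396 and 1316 CPM without insulin and 2158 to 2886 CPM with it. Mme, an endopeptidase that cuts within peptides, had 111, 260, 202 and 77.4 CPM without insulin and 77.5 to 307 CPM with it. The groups overlapped for each of these 3 peptidases, and their log2 fold changes were 0.21, 0.19 and 0.22 with edgeR adjusted p from 0.588 to 0.862. Without Control-STAM-nonINS replicate 4 they were 0.043, 0.0015 and -0.012.

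Alpi had 208, 332, 356 and 84.7 CPM in Control-STAM-nonINS and ranged from 332 over 424 to 547 CPM with insulin. The groups met at their edges, since the lowest insulin-treated library lay between untreated replicates. That is a log2 fold change of 0.78 ± 0.42 (edgeR adjusted p = 0.272), and the exact permutation test gave p = 0.0381. Leaving out Control-STAM-nonINS replicate 4 gave 0.49.

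Of the 9 members, 0 were called in this comparison by edgeR at an adjusted p under 0.05, against 10.5% of all tested genes. DESeq2 called 1, and 2 had an unadjusted p under 0.05, a threshold met by 25.4% of all genes. Of the members, 2 did not overlap between the groups, both lower, beside 6.23% of all genes that did not overlap and were lower. The exact permutation test was under 0.05 for 4 members (Sis, Mgam, Anpep and Alpi), beside 24.7% of all genes. Without any 1 of 9 of the 10 libraries the p of Anpep was above 0.05, and without any 1 of 7 that of Alpi was, so that 2 or 3 members were under 0.05. The groups of Sis and Mgam being separate, their p could only be the smallest of each smaller design. The 2 were Sis and Mgam without replicate 1 or 4 of Control-STAM-nonINS and without replicate 1, 4 or 6 of Control-STAM-INS. It was run on 27 pairs of member and comparison, and its p-values are not adjusted. The median log2 fold change of the 9 was 0.19, with values from -1.81 to 0.78, beside -0.0043 over all genes. By class the medians were 0.22 for the peptidases and -0.85 for the disaccharidases. Without Control-STAM-nonINS replicate 4, the library low in structure genes, they were 0.022 and -0.84, and without replicate 2 of that group the peptidase median was 0.44.

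Markers of other cells differed with insulin in the same libraries. Of 5 tested T cell markers, 3 rose (Cd3e, Cd3g and Cd8a), with log2 fold changes of 1.47, 1.74 and 1.33 and edgeR adjusted p of 0.0336, 0.004 and 0.0034. The summed T cell list ranged from 12.3 to 23 CPM in Control-STAM-nonINS and from 20.9 to 36.2 CPM in Control-STAM-INS, and Trac was listed at 0 in every library. The myeloid marker Itgam (1.29, edgeR adjusted p = 0.00098) and the Paneth cell marker Itln1 (1.39, edgeR adjusted p = 0.00615) rose without overlap between the groups, 1 of 4 and 1 of 5 tested in their lists. Of 8 stromal and vascular markers, 1 fell (Cdh5, -0.70, edgeR adjusted p = 0.0197). Of the goblet, crypt, smooth muscle, and B and plasma cell markers, 0 of 6, 0 of 8, 0 of 6 and 0 of 6 were called. The part of these cells in the enzyme values was not tested.

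**Figure D2:**
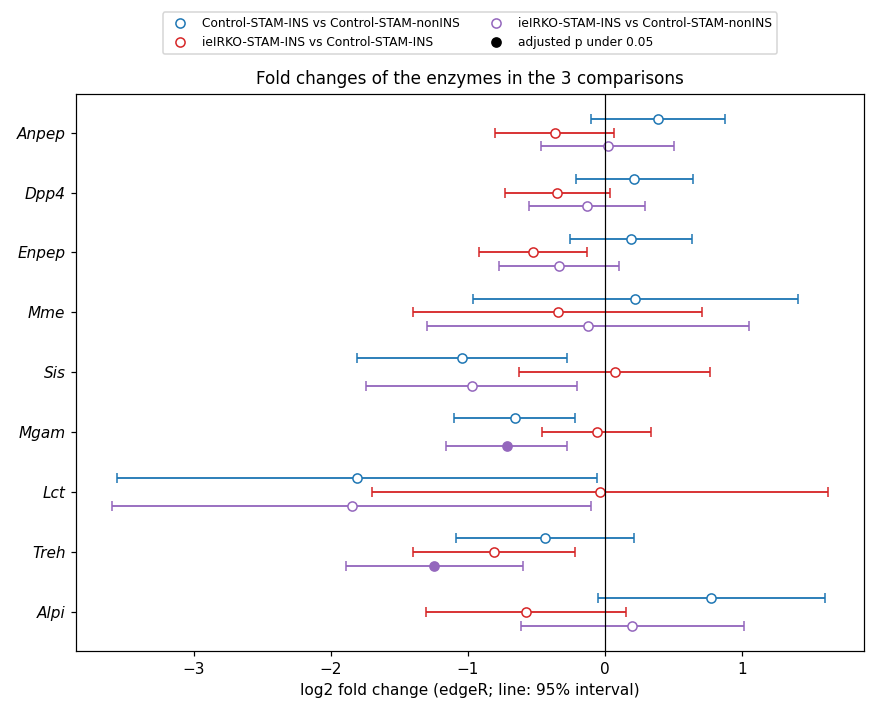
Log2 fold change of each enzyme from edgeR in the 3 comparisons, with lines for the 95% interval (1.96 SE on each side) and filled points for an adjusted p under 0.05. The only filled points are Mgam at -0.72 and Treh at -1.25 in the comparison of the ieIRKO-labelled libraries with Control-STAM-nonINS. Unfilled points whose lines lie below 0 are Sis and Lct in both comparisons with Control-STAM-nonINS, Mgam with insulin, and Enpep and Treh between genotype labels. The lines are approximate and can be narrower than the test allows. For Lct the unadjusted edgeR p was above 0.05 in both comparisons, at 0.062 with insulin and 0.0572 in the ieIRKO-labelled libraries.

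The second comparison asked how the enzymes differ between the genotype labels when both groups receive insulin (ieIRKO-STAM-INS against Control-STAM-INS). Sis and Mgam had close means in the groups, the peptidases and Treh were lower on average in the ieIRKO-labelled libraries, and no member passed the test.

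In the ieIRKO-labelled libraries, Sis ranged from 750 over a median of 2351 to 5764 CPM, a wider span than in either control group. Replicate 5 was the lowest and replicate 1 the highest, and replicate 1 alone reached the untreated level. The log2 fold change against Control-STAM-INS was 0.07 ± 0.36 (approximate 95% interval -0.63 to 0.77, edgeR adjusted p = 0.957). Mgam ranged from 1806 over 2996 to 5548 CPM with the same libraries at its ends. Its log2 fold change was -0.06 ± 0.20 (approximate 95% interval -0.46 to 0.34, edgeR adjusted p = 0.935). These intervals leave room for differences of either sign. Lct ranged from 0.472 to 7.15 CPM with a log2 fold change of -0.04 ± 0.85, which sets no useful bound.

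Treh ranged from 23.4 over 58.7 to 89.9 CPM, the lower part of which lay under every treated control. For Treh the log2 fold change was -0.81 ± 0.30 (edgeR adjusted p = 0.353), and the exact permutation test gave p = 0.0281. Enpep ranged from 915 over 1781 to 2629 CPM, with 5 of its 6 libraries under the lowest Control-STAM-INS library. The log2 fold change of Enpep was -0.53 ± 0.20 (edgeR adjusted p = 0.355), and the exact permutation test gave p = 0.013.

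Anpep ranged from 2904 over 6676 to 8980 CPM and Dpp4 from 360 over 667 to 957 CPM, and both overlapped with Control-STAM-INS. Their log2 fold changes were -0.37 ± 0.22 and -0.35 ± 0.19, with edgeR adjusted p of 0.559 and 0.526. Mme ranged from 21.6 over 121 to 381 CPM, with a log2 fold change of -0.34 ± 0.54 (edgeR adjusted p = 0.848). Alpi ranged from 70.4 over 290 to 455 CPM, and its log2 fold change was -0.58 ± 0.37 (edgeR adjusted p = 0.591). The lowest value of all 4 genes came from replicate 5, the library low in structure genes. Without it the log2 fold changes were -0.22 for Anpep, -0.22 for Dpp4, -0.12 for Mme and -0.38 for Alpi. Without replicate 1 of the same group, that of Mme was -0.88.

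For this comparison edgeR and DESeq2 called 0 of the 9 members, against 0.223% of all tested genes by edgeR. An unadjusted p under 0.05 was found for 2 members, Enpep and Treh, beside 11.3% of all genes. The exact permutation test was under 0.05 for 4 (Anpep, Enpep, Treh and Alpi), beside 10.7% of all genes, and 0 members separated the groups, beside 0.845% of all genes. Leaving out 1 library at a time gave 1 to 5 members under 0.05, with Enpep among them each time, while the p of Anpep passed 0.05 in 8 of 12 such settings and those of Treh and Alpi in 6 each. Enpep alone was under 0.05 without ieIRKO-STAM-INS replicate 3 and without replicate 5, and 2 members were without replicate 4 or 6 of that group and without Control-STAM-INS replicate 2, 4 or 6. In 8 of 9 members the log2 fold change was negative, with a median of -0.35 beside 0.017 over all genes.

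Markers of other cells moved with the genotype label. Of 5 tested Paneth cell markers outside the defensins, 3 fell (Lyz1, Itln1 and Ang4), and the summed list was 2836 to 4696 CPM in the treated controls against 723 to 1341 CPM in the ieIRKO-labelled libraries. All 6 B and plasma cell markers had positive log2 fold changes with a median of 2.01 and 0 called, and their sum was 959 to 1541 CPM against 1655 to 3115 CPM. All 13 brush border structure genes had negative log2 fold changes, with a median of -0.28 and 0 called. The part of these shifts in the enzyme values was not tested.

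Against the untreated controls, genotype label and insulin differ together in the ieIRKO-labelled libraries, so that their parts cannot be told apart, and this comparison shares its libraries with the other comparisons. Mgam and Treh fell and 0 members rose. Mgam had a log2 fold change of -0.72 ± 0.22 (edgeR adjusted p = 0.042), with the highest library, replicate 1 at 5548 CPM, above all 4 untreated controls. The call of Mgam rested on the full set of libraries, since it was lost when any 1 of 9 of the 10 libraries was left out, with adjusted p up to 0.0948. Only without ieIRKO-STAM-INS replicate 1 did it stay, at an adjusted p of 0.0028.

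Treh lay below 90 CPM in all 6 ieIRKO-labelled libraries and at 104 CPM or more in all 4 untreated controls. Its log2 fold change was -1.25 ± 0.33 (edgeR adjusted p = 0.0231), and the exact permutation test gave p = 0.00952. Leaving out Control-STAM-nonINS replicate 3, which had the highest Treh level of all, gave -0.98 with an adjusted p of 0.0875. Restricted to these 2 groups, edgeR gave log2 fold changes of -1.25 for Treh (adjusted p = 0.056) and -0.72 for Mgam (adjusted p = 0.0953). Scaled on the structure genes, Mgam was -0.70 with an adjusted p of 0.0657, and Sis was -1.05 with an adjusted p of 0.025.

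Sis had a log2 fold change of -0.97 ± 0.39 (edgeR adjusted p = 0.11), and without ieIRKO-STAM-INS replicate 1 it was -1.35 with an adjusted p of 0.0134. Lct had a log2 fold change of -1.85 ± 0.89 (edgeR adjusted p = 0.185), and without any 1 library it ran from -2.18 to -1.16. The peptidases and Alpi had smaller log2 fold changes, from -0.33 for Enpep to 0.20 for Alpi, with edgeR adjusted p from 0.338 to 0.965. That of Enpep ran from -0.52 to -0.19 without any 1 library. Without Control-STAM-nonINS replicate 4 the log2 CPM difference of Enpep was -0.59 (exact permutation p = 0.0476).

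The 2 called members, both lower, stand beside 13.3% of all tested genes called in this comparison and 7.59% called lower. Only Treh separated the groups, being lower, beside 4.76% of all genes that did so and were lower. The exact permutation test was under 0.05 for 3 members (Sis, Mgam and Treh), beside 22.6% of all genes. For Sis and Mgam it was above 0.05 without any 1 of 9 of the 10 libraries, up to 0.0952, and below it without ieIRKO-STAM-INS replicate 1. With 1 library left out, 1 to 4 members were under 0.05. Enpep was among them without Control-STAM-nonINS replicate 4, and Lct without replicate 1 of that group and without ieIRKO-STAM-INS replicate 1. The groups of Treh being separate, its p without 1 library could only be the smallest that design allows. The median log2 fold change was -0.33 over the 9 members, -1.11 over the disaccharidases and -0.13 over the peptidases, beside 0.0088 over all genes. In the same libraries 3 of 6 B and plasma cell markers (Cd79a, Jchain and Mzb1) and 3 of 5 tested T cell markers were higher, as was Itgam, while Fabp6 of the ileum list, Lyz1 and Ang4 of the Paneth cell list and Dcn and Pdgfrb of the stromal list were lower, and their part in the result was not tested.

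Because the microvillus genes themselves varied between libraries, each enzyme was also expressed as a log2 ratio to the mean log2 CPM of the 13 brush border structure genes in the same library. On this scale Sis was 2.79, 2.67, 2.77 and 3.62 in the Control-STAM-nonINS libraries and 0.812 to 2.24 in the Control-STAM-INS libraries. The difference was -1.33 ± 0.31 (SE), the groups did not overlap, and the exact permutation test gave p = 0.00952. The ratio of Mgam was 2.95, 2.66, 2.78 and 3.53 without insulin and 1.80 to 2.43 with it, a difference of -0.89 ± 0.22 (exact permutation p = 0.00952). Control-STAM-nonINS replicate 4 had the highest ratio of both genes, since its Sis and Mgam levels were like those of its group while its structure genes were low. Without that library the differences were -1.11 for Sis and -0.70 for Mgam (exact permutation p = 0.0238 each, the smallest that 3 against 6 libraries allow).

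Lct (-2.63 ± 1.07, exact permutation p = 0.0667) and Treh (-0.65 ± 0.28, exact permutation p = 0.0857) had lower ratios on average with overlapping groups. The differences with insulin were smaller for the peptidases, with 0.06 ± 0.07 for Dpp4, 0.04 ± 0.10 for Enpep and 0.03 ± 0.36 for Mme, and 0.26 ± 0.11 for Anpep (exact permutation p = 0.0381). Alpi was higher relative to structure by 0.75 ± 0.30 (exact permutation p = 0.019). Without Control-STAM-nonINS replicate 4, these were 0.18 for Anpep (exact permutation p = 0.0952) and 0.50 for Alpi (exact permutation p = 0.0476). Of the members, 4 had p under 0.05, beside 16.5% of all genes set against the same reference, and 2 separated the groups, both lower, beside 5.55% of all genes. Between the genotype labels under insulin, Enpep was lower by 0.25 ± 0.09 (exact permutation p = 0.0281) and Treh by 0.55 ± 0.24 (exact permutation p = 0.0433). These were 2 of the 9 members, beside 30.8% of all genes, and without ieIRKO-STAM-INS replicate 5 the p was 0.0563 for Enpep and 0.0866 for Treh. With villus enterocyte markers as the reference in place of the structure genes, the p with insulin was 0.0286 for Sis, 0.0762 for Mgam and 0.4 for Anpep, and the groups of Sis and Mgam then overlapped. The differences with insulin on this reference were -1.34 for Sis, -0.89 for Mgam and 0.26 for Anpep, close to those above. Between genotype labels the p on this reference was 0.652 for Enpep and 0.11 for Treh. Against the untreated controls, Sis, Mgam and Treh of the ieIRKO-labelled libraries had p under 0.05 for the ratio to the structure genes, 3 of 9 members beside 7.45% of all genes, and Treh alone separated the groups, beside 1.08% of all genes that did so and were lower. The difference of Treh was -1.19 ± 0.27 (exact permutation p = 0.00952). For Sis the p was 0.0952 without Control-STAM-nonINS replicate 4 and 0.0635 without ieIRKO-STAM-INS replicate 5, and for Mgam it was 0.238 with the villus markers as the reference, on which the groups of Treh overlapped as well (exact permutation p = 0.0286).

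**Figure D3:**
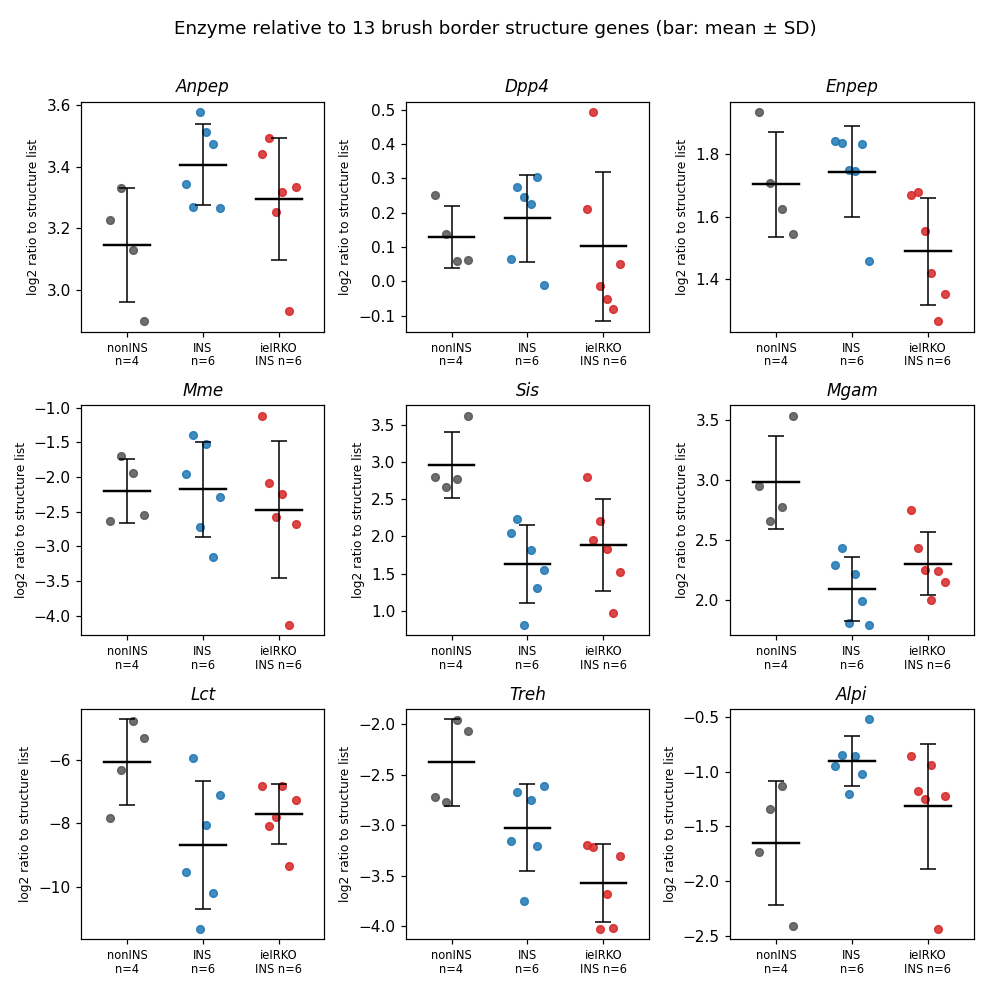
Log2 ratio of each enzyme to the mean log2 CPM of 13 brush border structure genes in the same library, by group, with mean ± SD. Sis and Mgam separate Control-STAM-nonINS from Control-STAM-INS, with differences of -1.33 and -0.89, whereas the ratios of Dpp4, Enpep and Mme differ by 0.06 or less.

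The ratio of Sis to Anpep within a library needs no reference list. It was 0.741, 0.631, 0.777 and 1.65 in Control-STAM-nonINS and 0.147 to 0.49 in Control-STAM-INS. In the ieIRKO-labelled libraries it ran from 0.258 to 0.642, with replicate 1 alone in the range of the untreated controls.

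After the group means were removed, the log2 CPM of Anpep, Dpp4 and Enpep correlated with Pearson r from 0.946 to 0.958 over 16 libraries, and Alpi with these 3 at 0.854 to 0.914. Sis and Mgam correlated at 0.924 with each other, and at 0.56 and 0.603 with Anpep. Mme correlated with both classes, at 0.872 with Sis, 0.848 with Mgam, 0.816 with Anpep and 0.864 with Alpi. With the mean of the structure genes, r was 0.966 for Anpep, 0.964 for Alpi, 0.934 for Enpep, 0.915 for Dpp4 and 0.872 for Mme, and it was 0.644 for Sis, 0.653 for Mgam, 0.703 for Treh and 0.45 for Lct. The libraries share their depth and cell makeup across all genes, and ieIRKO-STAM-INS replicate 5 is the lowest library for all 9 enzymes except Lct, for which 1 Control-STAM-INS library is lower. These values describe the libraries and were not tested.

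**Figure D4:**
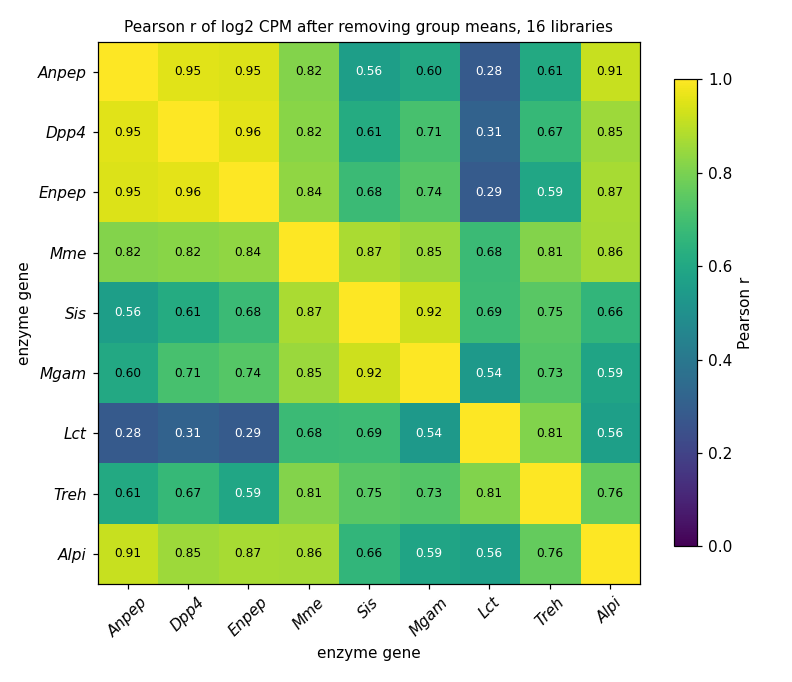
Pearson r between the log2 CPM of each pair of the 9 enzymes over 16 libraries after the group means were removed, on a color scale from 0 to 1 with r written in each cell. Anpep, Dpp4 and Enpep have r from 0.946 to 0.958 with each other and Sis with Mgam 0.924, and Mme has r of 0.872 with Sis, 0.848 with Mgam and 0.816 to 0.864 with the other peptidases and Alpi.

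Over all 16 libraries, the genes most like Anpep in log2 CPM were Rnf115 (r = 0.962), Heph (0.952) and Naaladl1 (0.950), the last also a brush border peptidase. Dpp4 was followed most closely by Iqgap2 (0.967), Itpr2 (0.953) and Ccng2 (0.949), Enpep by Itpr2 (0.962), Dgkq (0.958) and Dgka (0.953), and Mme by Xpnpep2 (0.937), Sgpl1 (0.933) and Pepd (0.931). For Alpi they were Cdhr5 (0.963), a cadherin of the microvillus tips, Apob (0.956) and Naaladl1 (0.956). Sis was most like Cyp4v3 (0.945), Sec62 (0.937) and Hace1 (0.935), and Mgam was most like Sik3 (0.953), Sec62 (0.926) and Slc5a1 (0.925). Slc5a1, the sodium-coupled glucose transporter SGLT1, takes up the glucose that both enzymes release. Treh was most like Slc7a15 (0.946), Slc5a11 (0.944) and Gm11127 (0.943), and Lct was most like Hsd17b4 (0.877), Cda (0.869) and Acot12 (0.857). Of these genes, Cda (-1.33, edgeR adjusted p = 0.00733) and Gm11127 (-0.89, edgeR adjusted p = 0.0349) fell with insulin in the control genotype.

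Of 19 other listed hydrolases of the same membrane, 16 were tested, since Akp3, Folh1 and Tmprss15 did not pass the filter, and 0 were called in any of the 3 comparisons. With insulin in the control genotype 11 of 16 had a positive and 5 a negative log2 fold change, from -0.72 (Alpl) to 1.14 (Alppl2), with a median of 0.19. Ace, singled out after its values were seen, was higher without overlap of the groups, at 253 ± 43.4 CPM (SD, n = 4) without insulin and 379 ± 54.8 CPM (SD, n = 6) with it, and did not pass the test (log2 fold change 0.58, edgeR adjusted p = 0.0974). Among the most abundant were Naaladl1 with 2318, 2962 and 2105 CPM in the untreated controls, the treated controls and the ieIRKO-labelled libraries, and Mep1b, a subunit of the metalloprotease meprin, with 1144, 1468 and 1368 CPM.

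Among 8 transporters of the products, 0 were called in any comparison. The most abundant were Slc5a1 with 2315, 1858 and 1553 CPM in the 3 groups in the same order, the amino acid transporter Slc6a19 with 930, 810 and 537 CPM, and Slc3a1, the heavy subunit of a cystine transporter, with 372, 421 and 367 CPM. Slc2a2, the facilitative hexose transporter GLUT2, was singled out after its values were seen. It averaged 184 CPM without insulin and 39.5 CPM with it, without overlap, and its log2 fold change of -2.22 had an edgeR adjusted p of 0.0692. In the ieIRKO-labelled libraries Slc2a2 averaged 46.8 CPM. Slc7a9, also picked after its values were seen, was higher with insulin without overlap, at 320 against 249 CPM (log2 fold change 0.37, edgeR adjusted p = 0.113). Of the 8 transporters, 4 had a positive and 4 a negative log2 fold change with insulin, with a median of -0.0039.

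Of 9 villus enterocyte markers, 1 fell with insulin in the control genotype. Fabp1, a fatty acid binding protein of the enterocyte, averaged 85 CPM without insulin, 14.3 CPM in the treated controls and 17.8 CPM in the ieIRKO-labelled libraries (log2 fold change with insulin -2.58, edgeR adjusted p = 0.0117). It was also the marker called against the untreated controls in the ieIRKO-labelled libraries, at -2.26 (edgeR adjusted p = 0.0181). The other 8 markers did not pass the test with insulin, and the median of the list was 0.26.

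The transcription factors known to act on these enzymes in enterocytes did not pass the test. Of 16 listed, among them the CDX, HNF1, HNF4 and GATA factors whose motifs were searched, 0 were called in any comparison. The median log2 fold change was -0.02 with insulin and -0.11 between the genotype labels. With insulin in the control genotype the groups did not overlap for Cdx1, lower by 0.19 on the log2 scale, and Klf5, higher by 0.17 (edgeR adjusted p = 0.203 and 0.263). The most abundant were Hnf4a with 932, 990 and 899 CPM in the same order of groups, Maf with 621, 589 and 499 CPM, and Klf5 with 414, 465 and 439 CPM. These are levels of RNA and do not measure the activity of the factors.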

How the data were processed

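Total RNA of the ileal wall was sequenced from directional libraries. The authors aligned the reads to GRCm38 (mm10) with CLC Genomics Workbench 21.0.3 and deposited, for each of the 16 libraries, whole-number counts per gene without normalization. The annotation version and the strand setting are not given in the sources used here. Groups were taken from the GEO labels, and replicates were numbered by the labels.

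Counts were analysed with edgeR 4.0.16 in R 4.3.3 (filterByExpr with a minimum count of 10 and a minimum total of 15, TMM, robust quasi-likelihood F test, 1 model for the 3 groups, Benjamini-Hochberg adjustment over 15267 genes). CPM are scaled by TMM, and log2 CPM add a prior count of 2. Exact permutation tests were two-sided, doubling the smaller tail, over 210 arrangements for 4 against 6 libraries and 924 for 6 against 6. Exon lengths and positions came from GENCODE M21 and promoters from RefSeq, in which all 9 genes were found. The scripts were tested on simulated data. Counting error was small beside the spread between libraries, except for Lct. The labels name the replicates biological, and the p-values measure the spread between these libraries.

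All 9 members were named. From the other lists, genes past an adjusted p of 0.05 were named, otherwise the 3 most abundant, and Insr was named as the target of the knockout. One gene that this rule names is not reported here. The members and gene lists were chosen with earlier results of these data known. The alternatives were DESeq2 1.42.0, upper-quartile scaling, other filters, only the groups compared, a replicate block, scaling on the structure genes, other references and prior counts, medians, and leaving out libraries. Correlations of same-numbered libraries ran from -0.094 to 0.18. Differently numbered libraries were not set beside them, so these values cannot settle pairing, and none was assumed. No 2 libraries of the same group agreed within sampling noise.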

Additional observations from a re-analysis of the deposited data

Results flagged for a closer look

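The level of each enzyme was checked in each group for a library far from the others by Dixon's test, which made 27 tests and would mark about 1 in 20 by chance. In the ieIRKO-labelled libraries, Mme was far above the others in replicate 1, at 381 CPM against 21.6 to 150 CPM, with a gap of 0.642 of the range of the group. In Control-STAM-nonINS, Mgam was marked as low in replicate 4, with a gap of 0.877 of the range. That range is narrow, since the value is 5223 CPM against 5312 to 5324 CPM in the other libraries.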

How the results depend on the processing

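The limits lie in the spread between mice rather than in depth, except for Lct with as few as 3 reads. Sis and Mgam had a lower level with insulin in the control genotype under every alternative run. Without any 1 library the log2 fold change ran from -1.20 to -0.91 for Sis and from -0.75 to -0.60 for Mgam, and the exact permutation p, always the smallest the design allowed, from 0.0159 to 0.0238 for both. Members called lower in this comparison were 0, but 1 with DESeq2, 2 with only these 2 groups and 2 with scaling on the structure genes, and 0 without any 1 library. In the ieIRKO-labelled libraries against Control-STAM-nonINS, 2 members were called lower, but 1 with no filter on low counts, 0 with only these 2 groups, 0 to 3 without any 1 library (0 without Control-STAM-nonINS replicate 3), 1 without Control-STAM-nonINS replicate 4 and ieIRKO-STAM-INS replicate 5 together, and 0 without ieIRKO-STAM-INS replicates 2 and 3 together. The last 2 settings and the left-out libraries of the structure ratio were chosen after seeing the data. Scaling on the structure genes moved the median of all genes by -0.24 with insulin, 0.39 between genotype labels and 0.14 in the last comparison, and brought the genes called with insulin from 1602 to 625 and in the last comparison from 2036 to 361. Genes called in the last comparison were 1038 with only these 2 groups, 1270 without ieIRKO-STAM-INS replicates 2 and 3, and 1093 without Control-STAM-nonINS replicate 1, the lowest of the left-out libraries, as were the 824 with insulin. Between genotype labels DESeq2 called 127 genes and edgeR 34. With another reference for the ratio, the exact permutation p with insulin was 0.0381 (Vil1) and 0.0476 (villus markers) for Treh, 0.105 (Vil1) for Anpep and 0.0381 (villus markers) for Lct. Between genotype labels it was 0.0108 (Vil1) for Alpi. In the last comparison it was 0.019 (Vil1) for Enpep, 0.0476 (both references) for Lct and 0.0476 (villus markers) for Alpi. Losses with the villus markers stand beside the ratios above.

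Sign changes were found only in values that had not passed the test. Between the genotype labels, the log2 fold change ran without any 1 library from -0.31 to 0.26 for Sis, from -0.29 to 0.060 for Mgam and from -0.33 to 0.85 for Lct, and the log2 CPM difference from -0.35 to 0.24 for Sis and from -0.29 to 0.033 for Mgam. Scaling on the structure genes gave 0.20 for Mgam and 0.17 for Lct. Leaving out Control-STAM-nonINS replicate 4 and ieIRKO-STAM-INS replicate 5 together gave 0.06 for Mgam and 0.20 for Lct, and leaving out ieIRKO-STAM-INS replicates 2 and 3 gave 0.19 for Lct. With insulin in the control genotype, the log2 fold change of Mme ran without any 1 library from -0.012 to 0.55 and was -0.0034 without the first pair, and the log2 CPM difference ran from -0.0025 to 0.35 for Enpep and from -0.077 to 0.51 for Mme. Against the untreated controls, the log2 fold change in the ieIRKO-labelled libraries ran without any 1 library from -0.19 to 0.21 for Anpep, -0.30 to 0.0047 for Dpp4, -0.66 to 0.21 for Mme and -0.086 to 0.44 for Alpi, and the log2 CPM difference from -0.26 to 0.23, -0.37 to 0.017, -0.75 to 0.073 and -0.24 to 0.57. Without the first pair Anpep was -0.034 and its log2 CPM difference -0.044. For the ratio to the structure genes, Vil1 as the reference gave -0.00063 for Enpep and -0.015 for Mme with insulin, and the villus markers gave 0.020 for Anpep and 0.050 for Dpp4 between genotype labels and 0.10 for Dpp4 in the last comparison. Without Control-STAM-nonINS replicate 4 the ratio with insulin was -0.011 for Enpep and -0.086 for Mme. Without ieIRKO-STAM-INS replicate 5 that of Mme was 0.038 between genotype labels, and without either library it ran from -0.38 to 0.065 for Mme and from -0.049 to 0.0097 for Dpp4 in the last comparison. The causes were not tested.

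The replicate number as a block changed no call of a member, with 0, 0 and 2 members called, and turned the sign of Sis (-0.078) and Lct (0.36) between genotype labels and of Mme (0.0074) in the last comparison. With the block, 1397, 30 and 1615 genes were called in the 3 comparisons. Whether the numbers pair the samples was not settled.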
